A study of Mus musculus with 6 samples.

Results

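Integrins and laminins are the receptors and the ligands through which an epithelium holds on to its basement membrane. The genes described here are the protein-coding genes of the count table with a symbol of the form Itga, Itgb, Lama, Lamb or Lamc followed by the subunit's number or letter. They number 37 of the 55487 genes in the table, 26 integrin subunits and 11 laminin chains, and were picked out by symbol, in a set chosen with earlier results of these data known. Of the 37 genes, 34 had enough reads to be compared between genotypes. The other 3, Itgad, Itgam and Itgax, are accounted for by their counts. Counts and medians over the set cover all 34 genes tested, of which 33 are described by name.

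RNA was sequenced from mammary epithelial cells (MECs) of 3 wild-type (WT) and 3 IL-21isoTg mice, with 1 library per mouse. All 6 were virgin BALB/c females of 10 weeks, with the stage of the oestrous cycle left to vary at random. IL-21isoTg mice carry a transgene for a membrane-bound isoform of the cytokine IL-21 in their T cells, so the MECs themselves are not the cells meant to express it. The promoter of the transgene and the number of founder lines are not given in the sources used here. MECs were what remained of the dissociated gland after magnetic removal of cells with CD45 (leukocytes), CD31 (endothelium) or CD140a (fibroblasts) on their surface, and this population holds both the luminal and the basal, or myoepithelial, layer.

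An integrin is a pair of an alpha and a beta subunit, and the alpha subunit largely sets which matrix protein it binds. A laminin is a trimer of an alpha, a beta and a gamma chain that assembles into a sheet, to which nidogen, perlecan and collagen IV are joined to form the basement membrane. In the mammary gland the basal cells rest on this sheet and bind it mainly through pairs of Itgb1 with Itga3 or Itga6 and through the pair of Itga6 with Itgb4, which anchors keratin filaments in hemidesmosomes. The laminin that holds Lama3 and Lamb3 is the ligand of hemidesmosomes, and the laminins with Lama5 or Lama1 are the other main epithelial forms.

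The sequences in front of the RefSeq starts of Itga8 and Itgb8 are given first, because these were the genes with the smallest p-value in either direction of the genotype comparison. Both were read from the RefSeq promoter table for GRCm38.p6, 5′ to 3′ on the strand of the gene, and cover the 250 bases that end just before the RefSeq start, with each CpG in capitals. The Itga8 stretch, chr2:12301945-12302194 on the minus strand, held 18 CpG and 56.4% G and C. The Itgb8 stretch, chr12:119238277-119238526 on the minus strand, held 12 CpG and 62.4% G and C. In GENCODE the Itgb8 gene reaches to base 119238802, so this stretch lies inside the gene of that annotation.
Itga8: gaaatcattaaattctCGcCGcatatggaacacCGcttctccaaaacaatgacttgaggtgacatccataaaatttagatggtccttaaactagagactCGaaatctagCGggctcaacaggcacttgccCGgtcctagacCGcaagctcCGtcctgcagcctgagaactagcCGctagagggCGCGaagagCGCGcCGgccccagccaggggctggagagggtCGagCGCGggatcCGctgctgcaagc
Itgb8: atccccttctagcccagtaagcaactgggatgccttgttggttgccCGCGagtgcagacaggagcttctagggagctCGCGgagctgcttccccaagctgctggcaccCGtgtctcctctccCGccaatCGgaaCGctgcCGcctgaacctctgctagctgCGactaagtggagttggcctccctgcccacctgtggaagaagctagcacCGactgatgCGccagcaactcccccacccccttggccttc

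STAT proteins, which cytokine receptors activate, bind palindromes of the form TTCNNNGAA, and the promoters of the genes were searched for these letters. Il21r, the gene of the IL-21 receptor, had only 25, 11 and 41 counts in WT and 17, 55 and 25 in IL-21isoTg, so the search does not presume that MECs respond to IL-21 directly. A promoter was taken as 250 bases before to 50 bases after the start, and 23 of the 37 genes had 26 promoters in the table. TTCNNNGAA, which reads the same on both strands, was found in the promoters of 2 of the 23 genes, Itga10 and Lamb2, and in 8.30% of all 32851 promoters. The Itga10 match lay 189 bases before the start, in chr3:96645385-96645413 on the plus strand. The Lamb2 match lay 208 bases before the start, in chr9:108479644-108479672 on the plus strand. Both are shown with 10 bases on either side and the match in capitals.
Itga10: aatttgtgttTTCTTTGAAtattagctga
Lamb2: tcccttttagTTCCTCGAActaagctgct
Neither gene differed between the genotypes in the comparison described below, and the Itga8 and Itgb8 promoters held no such match. TGANTCA, the letters bound by AP-1, was found in the promoters of Itga3, Itga9 and Itgax, against 7.81% of all promoters. The GC box GGGCGG, searched on both strands, was found in 11 of the 23 genes against 35.7% of all promoters, and CACGTG in 0 of them against 7.15%. TATAAA, searched on both strands, was in 0 of the 23 genes and in 13.6% of all promoters. A match describes these letters only.

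The libraries held 15902886 to 25719244 counts, and 3 counts, taken as the floor of detection, corresponded to 0.112 to 0.280 CPM. CPM here is the read count of a gene relative to the total of its library, after scaling of the libraries by the trimmed mean of M values (TMM). The transgene's own gene, Il21, was read 795, 216 and 131 times in IL-21isoTg mice 1 to 3, against 0, 0 and 37 times in WT, so WT mouse 3 had Il21 reads as well. Genes of salivary gland took 5.05% to 40.1% of the counts of a library, 22.9%, 6.61% and 15.6% in WT and 22.3%, 5.05% and 40.1% in IL-21isoTg. The 10 basal and 14 luminal markers all passed the filter on low counts in these epithelial cells. RNA of other cells was also present, and all 9 fibroblast and all 8 endothelial markers passed the filter too. The fibroblast sum was 2022, 3572 and 3223 CPM in WT and 5128, 4453 and 4458 CPM in IL-21isoTg, higher in every IL-21isoTg mouse. Of its 9 markers, 4 (Col1a1, Col1a2, Col3a1 and Lum) were each higher without overlap, beside 5.54% of all genes. The other markers of the sum overlapped between the genotypes, and Dcn had an estimate below 0. In these bulk samples fewer cells of a type and less RNA per cell cannot be told apart.

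The integrin subunits were led by Itgb1, the common beta subunit of most matrix receptors. Levels of different genes were set side by side per kilobase of exon, with the exons of all annotated transcripts of a gene counted in its length. On this scale Itgb1 had 89.9 CPM on average over the 6 mice and 81.0 to 107 CPM in single mice. The highest value of any other integrin was 49.5 CPM per kilobase, for Itgb5. Itgb5, which pairs with Itgav, had 34.8 CPM per kilobase, Itgb4 had 30.4, Itga6 had 30.1 and Itga3 had 27.1. These 4 neighbours in the order did not differ beyond their spread, since the range of each overlapped those of the others. Itgav followed with 13.1 CPM per kilobase, Itga5, the fibronectin receptor, with 8.98, and Itga8 with 6.27. The other integrins above the filter had means of 0.127 to 3.02 CPM per kilobase.

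Among the laminin chains Lama5 led with 35.0 CPM per kilobase, and Lamb2 had 33.0 and Lamc1 26.7. The ranges of Lama5 and Lamb2 overlapped. Lamb3 had 15.4 CPM per kilobase and Lamb1 had 11.4. Their ranges overlapped as well, but within every mouse Lamb3 was above Lamb1. Lama3 had 7.42, Lama4 3.93, Lama2 3.63, Lama1 3.09 and Lamc3 1.53 CPM per kilobase. Of the chains of the hemidesmosome ligand, Lama3 had a lower mean level per kilobase than Lamb3. The Lama3 length, 10745 bases, covers the exons of 2 annotated transcripts, and which of them was expressed was not tested. Without scaling by length the Lama3 mean was also the lower, at 85.2 against 87.6 CPM in WT and 74.3 against 117 CPM in IL-21isoTg. Whether the order of the 2 chains holds with another length was not tested.

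**Figure D1:**
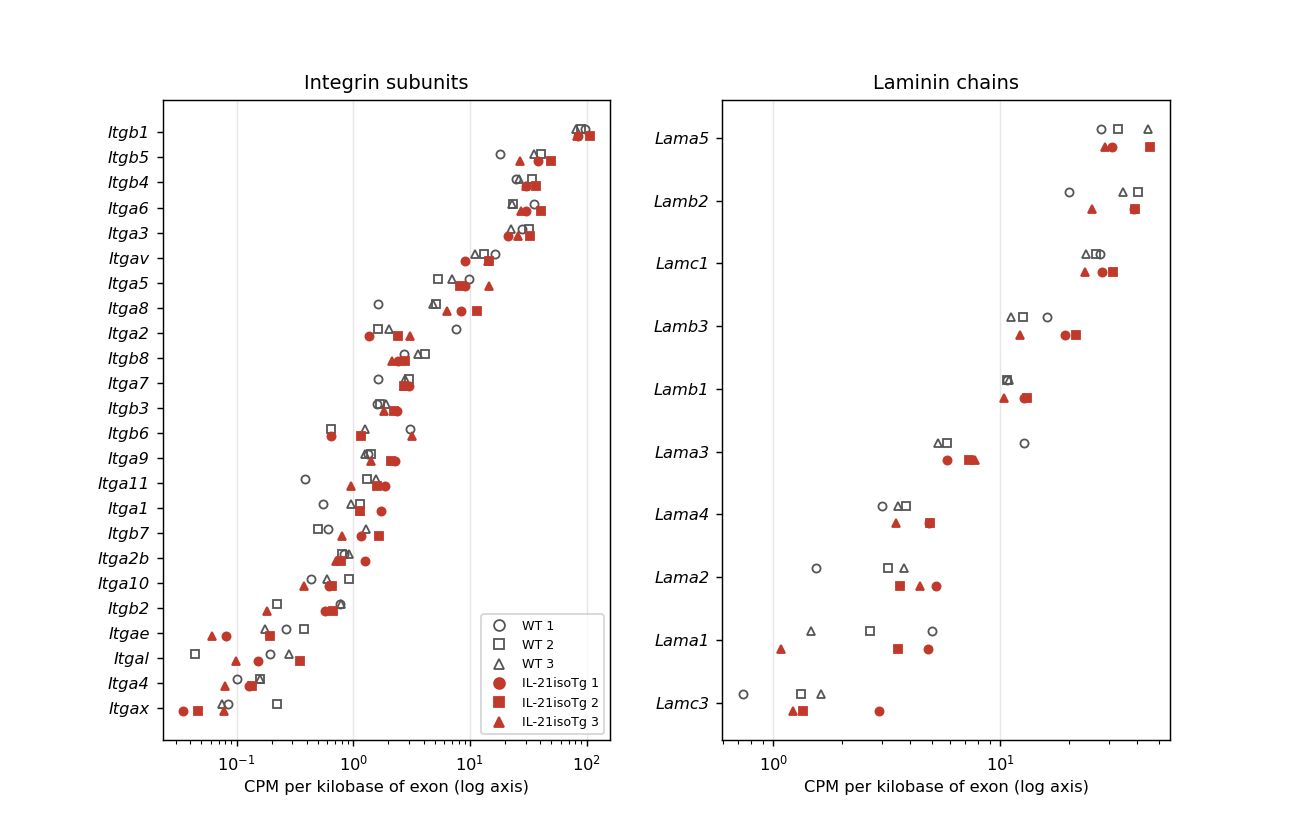
Levels of the integrin subunits (left) and laminin chains (right) in CPM per kilobase of exon on a log axis, with 1 point per mouse, open for WT and filled for IL-21isoTg. Genes with 0 counts in a mouse are left out. Itgb1 led the integrins with 81.0 to 107 CPM per kilobase, and the points of the genotypes overlapped in all genes shown apart from Itga8.

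Expressed as a share of its class, Itgb1 made up 52.0% to 65.1% of all beta subunit signal per kilobase in a mouse, Itgb5 12.2% to 24.6% and Itgb4 16.8% to 20.4%. The highest Itgb1 share and the lowest Itgb5 share were both those of WT mouse 1. Among alpha subunits Itga6 made up 25.9% to 33.9%, Itga3 23.5% to 35.6%, Itgav 9.97% to 15.7% and Itga8 1.56% to 9.56%. Lama5 made up 55.5% to 76.0% of the laminin alpha chains, Lama3 9.05% to 25.4%, and the largest Lama3 share was again that of WT mouse 1. Of the beta chains Lamb2 made up 42.9% to 63.3%, Lamb3 19.6% to 34.4% and Lamb1 16.9% to 22.7%.

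**Figure D2:**
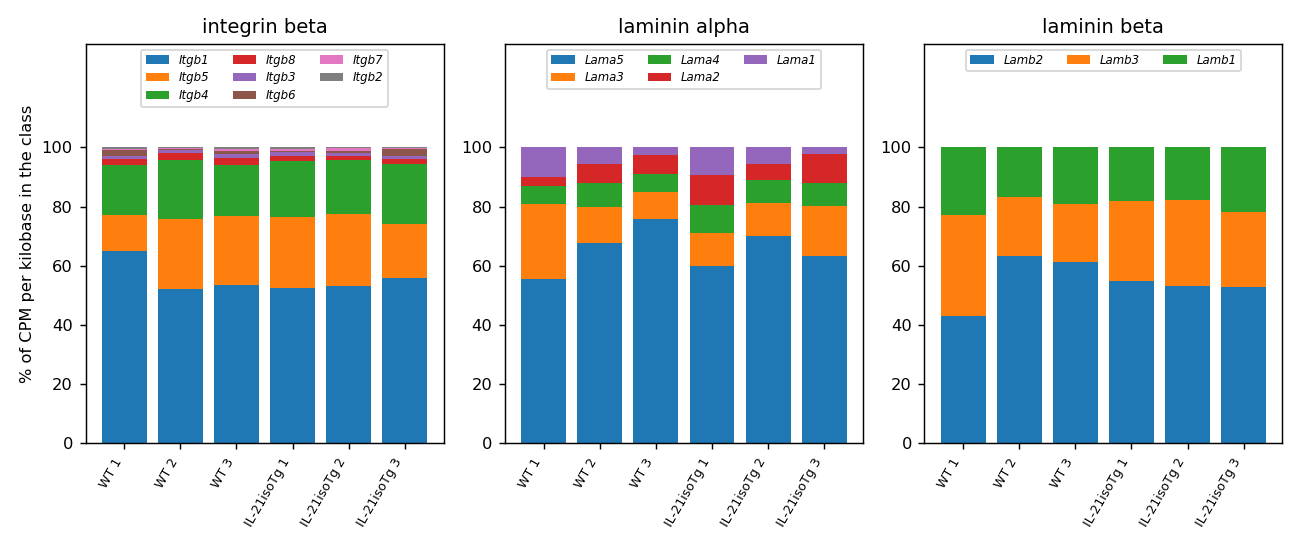
Share of each gene in the summed CPM per kilobase of its class in each of the 6 mice, for integrin beta subunits and laminin alpha and beta chains, as stacked bars in percent. Itgb1 made up 52.0% to 65.1%, Lama5 55.5% to 76.0% and Lamb2 42.9% to 63.3%, with both genotypes inside those ranges.

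The summed integrin level was 1518, 1497 and 1316 CPM in WT and 1451, 1860 and 1458 CPM in IL-21isoTg. The summed laminin level was 1312, 1390 and 1439 CPM in WT and 1479, 1748 and 1262 CPM in IL-21isoTg. In both sums the genotypes overlapped, and IL-21isoTg mouse 2 was the highest of the 6.

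The comparison of IL-21isoTg with WT asks whether MECs that develop beside IL-21-expressing T cells differ in their adhesion genes before any tumour. In the quasi-likelihood test of edgeR, with p-values adjusted by Benjamini-Hochberg over the 17165 genes tested, 0 of the 34 integrin and laminin genes passed an adjusted p of 0.05 in either direction. The background was the same, with 0% of all genes called higher and 0% called lower, and the smallest adjusted p of any gene was 0.126. The adjusted p of the 34 genes lay between 0.809 and 0.999. At an unadjusted p under 0.05 by edgeR, 1 gene was higher in IL-21isoTg (Itga8) and 1 lower (Itgb8), beside a background of 3.19% of all genes higher and 2.63% lower, so the share of members was near that of all genes. The levels of the genotypes did not overlap for 1 member, Itga8, which was higher, beside 5.54% of all genes higher and 6.54% lower without overlap. DESeq2 called 0.419% of all genes higher and 0.0524% lower, 81 genes in all, and 0 of the members.

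The median log2 fold change of the 34 genes was 0.15, against -0.02 for all genes tested, with 24 estimates above 0 and 10 below. For all genes, 8216 estimates were above 0 and 8949 below. The 23 integrins tested had a median of 0.18, with 14 estimates above 0, and the 11 laminins a median of 0.12, with 10 above 0. The count at an unadjusted p under 0.05 by edgeR depended on single mice. Without WT mouse 1 it was 4 higher and 1 lower (Itga5, Itga6, Itga8, Lamb3 and Itgb8), beside 3.72% and 3.21% of all genes. Without IL-21isoTg mouse 3 it was 4 higher and 0 lower (Itga8, Itga9, Lama4 and Lamb3), beside 3.51% and 1.61%, and without IL-21isoTg mouse 1 it was Itga8 alone, beside 1.88% and 1.16%. With the salivary gland signal of each mouse in the model it was 3 higher (Itga8, Itga9 and Lama4) and 1 lower (Itgb8), beside 3.67% and 2.5%. Without WT mouse 2 it was 2 higher (Itga1 and Itga8) and 0 lower, beside 3.78% and 2.79%, and without WT mouse 3 it was 2 higher (Itga8 and Lama2) and 0 lower, beside 2.03% and 1.87%. Without IL-21isoTg mouse 2 it was 0 higher and 2 lower (Itgae and Itgb8), beside 5.12% and 3.77%. Without a filter on low counts it was Itgb8 alone, beside 2.5% and 1.96%, and with the replicate number as a block the count was 1 in each direction, beside 2.35% and 1.47%. Leaving out 1 mouse or using another setting changed the sign of the estimate in 15 of 33 genes.

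**Figure D3:**
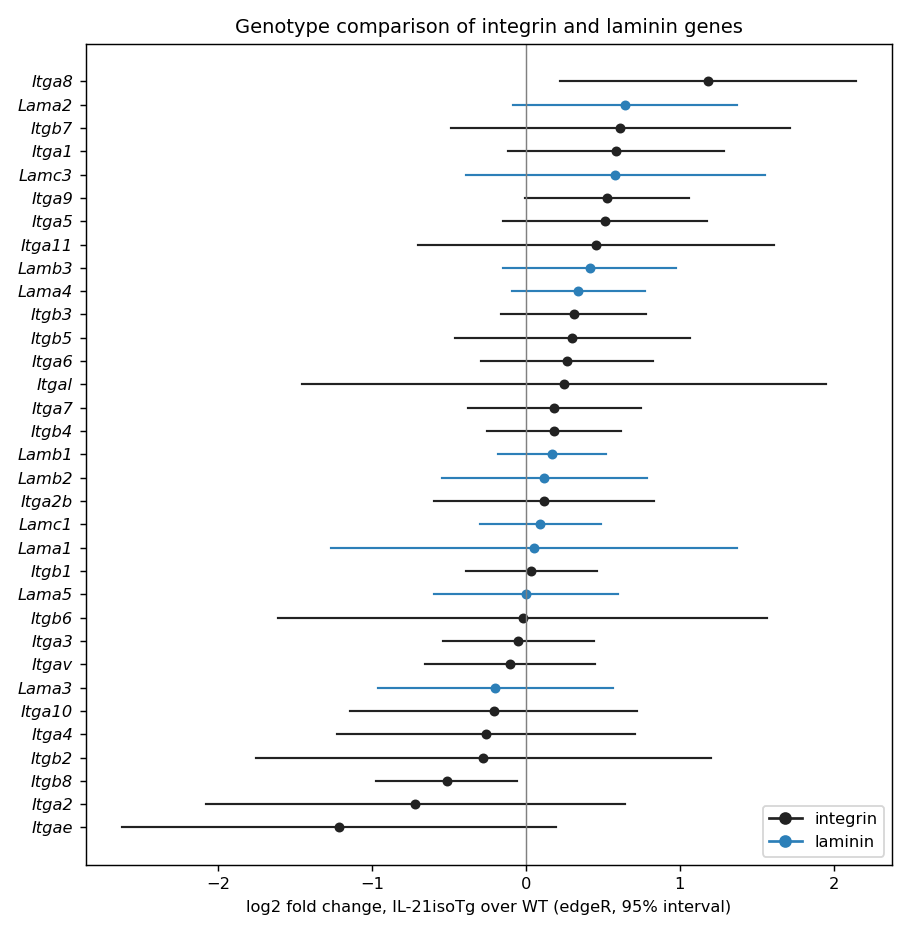
Log2 fold change of IL-21isoTg over WT for 33 of the 34 genes tested, with its 95% interval from edgeR, integrins in black and laminins in blue. The intervals of Itga8 (0.22 to 2.14) and Itgb8 (-0.97 to -0.05) did not include 0, and no gene passed the adjusted threshold.

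Itga8, the alpha subunit that pairs with Itgb1 and binds matrix proteins through an RGD motif, is known in contractile and mesenchymal cells. The gene (ENSMUSG00000026768) spans chr2:12106632-12301922 of GRCm38 on the minus strand. Its level was 12.04, 37.6 and 35.2 CPM in WT and 61.7, 84.3 and 46.4 CPM in IL-21isoTg. Every IL-21isoTg mouse was above every WT mouse, and WT mouse 1 was the lowest by far. The mean was 28.3 ± 14.1 CPM in WT and 64.1 ± 19.0 CPM in IL-21isoTg (SD, n = 3 each). The fold change was 2.27 (95% interval 1.17 to 4.42), with an edgeR unadjusted p of 0.0219 and an adjusted p of 0.809. With IL-21isoTg mouse 2 left out the unadjusted p by edgeR was 0.0773, and with WT mouse 1 left out the log2 fold change went from 1.18 to 0.83.

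The Itga8 values stood beside 2 other measured facts. An antisense gene, E030013I19Rik, shares 372 of the 7368 exon bases of Itga8 (5.05%), and had 21, 71 and 68 counts in WT and 227, 421 and 55 in IL-21isoTg. The strand setting of the authors' counting is not stated, so reads from the shared bases cannot be told apart. As a percentage of the summed fibroblast markers, Itga8 was at 0.596%, 1.05% and 1.09% in WT and at 1.203%, 1.89% and 1.04% in IL-21isoTg, so on this scale the genotypes overlapped. As a percentage of the summed basal markers it was at 0.558%, 1.52% and 1.67% in WT and at 1.57%, 2.38% and 2.00% in IL-21isoTg, also with overlap. Percentages of the fibroblast sum depend on the markers in it, which include Col1a1, Col1a2 and Col3a1. These collagens were themselves higher in every IL-21isoTg mouse than in any WT mouse. The part of the fibroblast and basal RNA in the Itga8 difference was not tested.

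Itgb8 pairs with Itgav in a receptor best known for activating latent TGF-beta. The gene (ENSMUSG00000025321) lies at chr12:119158022-119238802 on the minus strand. Its level was 30.3, 45.5 and 40.0 CPM in WT and 26.9, 30.5 and 23.6 CPM in IL-21isoTg. The groups overlapped only through WT mouse 1 and IL-21isoTg mouse 2, which were nearly level. The means were 38.6 ± 7.69 CPM in WT and 27.0 ± 3.43 CPM in IL-21isoTg (SD, n = 3 each), a fold of 0.701 (95% interval 0.510 to 0.964), with an edgeR unadjusted p of 0.0329 and an adjusted p of 0.809. The unadjusted p by edgeR was between 0.0821 and 0.129 with WT mouse 2, WT mouse 3, IL-21isoTg mouse 1 or IL-21isoTg mouse 3 left out. As a percentage of the summed basal markers, Itgb8 was at 1.40%, 1.83% and 1.89% in WT and at 0.685%, 0.861% and 1.01% in IL-21isoTg. On this scale the genotypes did not overlap, and the share of all genes without overlap on it was not computed. The basal sum itself was 2156, 2481 and 2111 CPM in WT and 3925, 3537 and 2326 CPM in IL-21isoTg. Its part in this separation was not tested. As a percentage of the luminal markers it was at 0.334%, 0.580% and 0.435% in WT and at 0.410%, 0.274% and 0.287% in IL-21isoTg, with overlap.

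**Figure D4:**
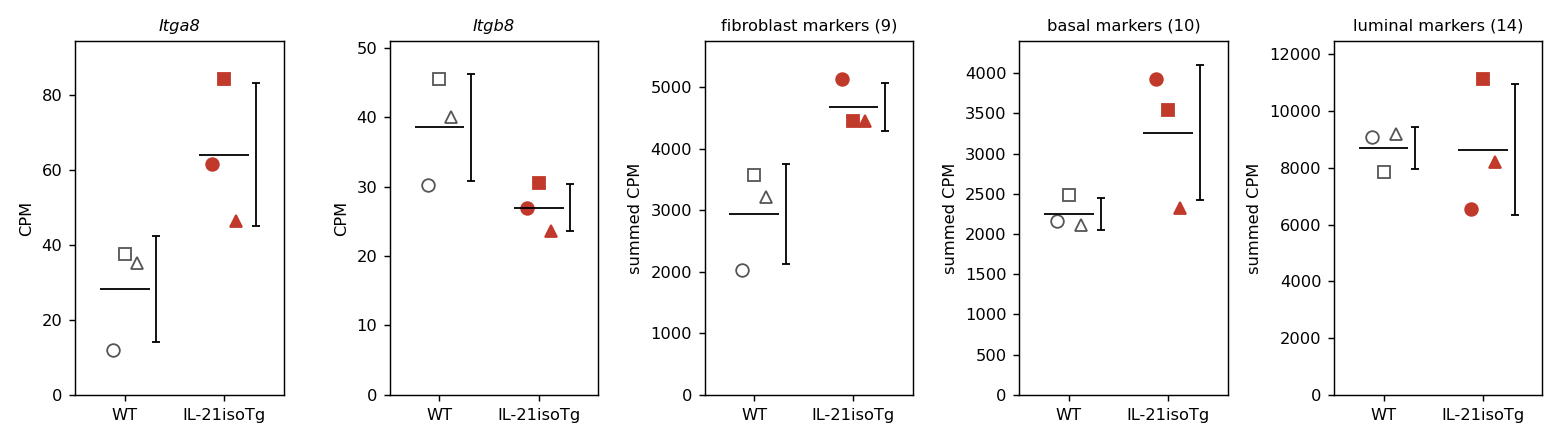
CPM of Itga8 and Itgb8 and summed CPM of 9 fibroblast, 10 basal and 14 luminal markers, with 1 point per mouse, WT open and IL-21isoTg filled. Horizontal lines are means and vertical bars SD (n = 3). Itga8 and the fibroblast sum were higher in every IL-21isoTg mouse than in any WT mouse, while Itgb8, the basal sum and the luminal sum overlapped.

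The basal marker sum was 2156, 2481 and 2111 CPM in WT and 3925, 3537 and 2326 CPM in IL-21isoTg, and the luminal sum 9067, 7841 and 9190 CPM in WT and 6558, 11115 and 8209 CPM in IL-21isoTg. The log2 ratio of basal to luminal markers was -2.07, -1.66 and -2.12 in WT and -0.74, -1.65 and -1.82 in IL-21isoTg. The mean difference was 0.55, with p = 0.2 in a two-sided exact permutation test, where 3 mice against 3 cannot give less than 0.1. IL-21isoTg mouse 1 had the highest share of basal markers, and this varies beside the values of the basal genes that follow.

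The laminin-binding integrins are those of the epithelial basement membrane. Itga6, which marks basal cells in mammary cell sorting, was at 321, 211 and 207 CPM in WT and at 274, 367 and 248 CPM in IL-21isoTg, and spans chr2:71745616-71858416. Its log2 fold change was 0.27 (95% interval -0.29 to 0.82) with an edgeR adjusted p of 0.856. Itgb4, its partner in hemidesmosomes at chr11:115974709-116008412, was at 175, 241 and 183 CPM in WT and at 213, 257 and 211 CPM in IL-21isoTg, with a log2 fold change of 0.18. In both genes the genotypes overlapped, and the highest value was that of IL-21isoTg mouse 2. Itga3, the other main laminin receptor subunit, was at 161, 183 and 129 CPM in WT and at 122, 186 and 149 CPM in IL-21isoTg. Itga7, best known from muscle, was at 13.3, 24.1 and 22.5 CPM in WT and at 24.4, 21.8 and 21.8 CPM in IL-21isoTg. The log2 fold change was -0.05 for Itga3 and 0.19 for Itga7.

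Itgb1, the partner of Itga3, Itga6, Itga7 and of many other alpha subunits, lies at chr8:128685654-128733200. It was at 394, 362 and 331 CPM in WT and at 343, 436 and 335 CPM in IL-21isoTg. The genotypes overlapped over most of their range, and the log2 fold change was 0.04 with a 95% interval of -0.39 to 0.46. On the linear scale this interval reached from 0.764-fold to 1.38-fold, and a difference within it was not detectable with these mice.

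The 4 collagen-binding subunits all passed the filter. Itga1 and Itga2, the receptors for collagens in basement membrane and stroma, are neighbours on chromosome 13, 20995 bases apart on the same strand with no other protein-coding gene between them. Itga1 was at 10.3, 21.4 and 17.9 CPM in WT and at 32.01, 21.2 and 21.1 CPM in IL-21isoTg, a log2 fold change of 0.59 with an edgeR unadjusted p of 0.0913. Itga2 was at 54.1, 11.7 and 14.4 CPM in WT and at 9.73, 17.3 and 22.0 CPM in IL-21isoTg, with a log2 fold change of -0.72. WT mouse 1 was the lowest of all mice for Itga1 and by far the highest for Itga2, and without it the Itga2 estimate was 0.33. Itga10, the receptor known from cartilage, was at 2.26, 4.76 and 3.06 CPM in WT and at 3.24, 3.42 and 1.96 CPM in IL-21isoTg. Itga11, a fibroblast collagen receptor, was at 1.98, 6.68 and 8.01 CPM in WT and at 9.60, 8.23 and 4.94 CPM in IL-21isoTg. Their log2 fold changes were -0.21 and 0.46, and Itga10 shares 33.5% of its exon bases with the gene model Gm42957, which had 0 counts. As a percentage of the fibroblast marker sum, Itga1 and Itga11 overlapped between the genotypes.

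The subunits of the receptors for RGD motifs include those that bind fibronectin, vitronectin and osteopontin. Itgav, the alpha subunit of several of these receptors, was at 177, 142 and 119 CPM in WT and at 97.3, 158 and 153 CPM in IL-21isoTg. Itgb5, an Itgav partner, was at 64.0, 143 and 125 CPM in WT and at 137, 176 and 96.2 CPM in IL-21isoTg. Itgb3, the vitronectin receptor's beta subunit, was at 9.52, 10.0 and 11.2 CPM in WT and at 14.1, 13.1 and 10.8 CPM in IL-21isoTg. The genotypes overlapped in all 3 genes, with log2 fold changes of -0.10, 0.30 and 0.31. Itgb6, an Itgav partner of epithelia, varied widely, at 21.8, 4.56 and 8.999 CPM in WT and at 4.57, 8.26 and 22.6 CPM in IL-21isoTg, so that its highest values were in 1 mouse of either genotype. Its log2 fold change was -0.02, and 8 of 18 alternatives gave it the opposite sign. Itga5 was at 48.2, 26.3 and 34.8 CPM in WT and at 45.1, 40.3 and 71.2 CPM in IL-21isoTg, a log2 fold change of 0.51 with an edgeR unadjusted p of 0.111. Itga2b, the alpha subunit of the platelet fibrinogen receptor, was at 4.51, 4.32 and 5.04 CPM in WT and at 6.82, 4.28 and 3.92 CPM in IL-21isoTg. Of 5 platelet markers, 3 were at 0 in every mouse and 1 passed the filter.

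Osteopontin, encoded by Spp1, is a ligand of several of these integrins. Spp1 was at 99.2, 190 and 230 CPM in WT and at 1537, 1561 and 621 CPM in IL-21isoTg, without overlap. Its fold change was 7.17 (95% interval 3.47 to 14.8), with an edgeR unadjusted p of 0.000249 and an adjusted p of 0.355. Spp1 thus did not pass the adjusted threshold, which no gene passed in this test. The authors report a significant rise of Spp1 by RT-PCR in MECs and stromal cells, and more osteopontin protein by tissue staining. Of 9 subunits known to bind osteopontin, 6 had estimates above 0 and 3 below, with a median log2 fold change of 0.30, against -0.02 for all genes. By edgeR 1 of the 9, Itga8, had an unadjusted p under 0.05 and was higher, beside 3.19% of all genes higher at this p.

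Itga9, which binds tenascin and osteopontin with Itgb1, was at 10.3, 11.0 and 9.76 CPM in WT and at 17.4, 16.2 and 10.9 CPM in IL-21isoTg. The WT mice lay close together, and IL-21isoTg mouse 3 was just under the highest of them. The fold change was 1.44 (95% interval 0.996 to 2.08) with an edgeR unadjusted p of 0.0520 and an adjusted p of 0.809. The edgeR unadjusted p of Itga9 was under 0.05 without IL-21isoTg mouse 3 and with the salivary gland signal in the model. The same held by DESeq2 and by limma-voom. With 1 mouse left out the edgeR unadjusted p of Itga9 ranged from 0.00947 to 0.184. Under the other settings, by edgeR, DESeq2 or limma-voom, it ranged from 0.0365 to 0.0909. Itga4, its relative on lymphocytes, was low, at 1.40, 2.21 and 2.21 CPM in WT and at 1.79, 1.899 and 1.119 CPM in IL-21isoTg.

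The 7 leukocyte integrins were at or below 4.62 CPM in every mouse, in cells from which CD45-carrying cells had been removed. Itgad had 0 counts in all 6 mice. Itgam, the myeloid subunit, had 3, 3 and 0 counts in WT and 0, 0 and 1 in IL-21isoTg, and Itgax, known from dendritic cells, had 9, 22 and 8 counts in WT and 4, 6 and 4 in IL-21isoTg. These 3 genes lie side by side on chromosome 7, with Itgam and Itgax 11.1 kb apart and Itgax and Itgad 3.7 kb apart. Itgam shares 3450 of its 5024 exon bases with the gene model Gm49368, which had 0 counts, so its count is uncertain. Itgae, known from intraepithelial T cells, was at 1.22, 1.73 and 0.810 CPM in WT and at 0.374, 0.893 and 0.280 CPM in IL-21isoTg, a log2 fold change of -1.21 with a standard error of 0.61 and an edgeR unadjusted p of 0.0823. Itgb7, its partner, was at 1.67, 1.39 and 3.55 CPM in WT and at 3.20, 4.62 and 2.24 CPM in IL-21isoTg. The subunits of the pair thus had estimates of opposite sign, 0.61 for Itgb7, and overlapped between the genotypes. Itgb2, the shared beta subunit of leukocytes, was at 2.35, 0.673 and 2.39 CPM in WT and at 1.75, 2.05 and 0.560 CPM in IL-21isoTg, and Itgal at 1.26, 0.288 and 1.85 CPM in WT and at 0.998, 2.31 and 0.653 CPM in IL-21isoTg. The summed leukocyte markers, 11 of 13 above the filter, were at 47.6, 23.4 and 40.9 CPM in WT and at 33.6, 35.0 and 45.6 CPM in IL-21isoTg.

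Of the laminin alpha chains, Lama5, the broad epithelial form, was at 315, 374 and 506 CPM in WT and at 352, 516 and 327 CPM in IL-21isoTg. The genotypes covered nearly the same range, and the log2 fold change was 0.0021 (95% interval -0.59 to 0.60). Lama3, the chain of the hemidesmosome ligand, was at 136, 62.8 and 56.8 CPM in WT and at 62.2, 78.1 and 82.6 CPM in IL-21isoTg, a log2 fold change of -0.20. WT mouse 1 had the highest Lama3 value, and without it the estimate was 0.33. Lama1, the main form of embryonic basement membranes, was at 48.4, 25.9 and 14.2 CPM in WT and at 46.6, 34.1 and 10.4 CPM in IL-21isoTg, so that mice of each genotype differed more among themselves than the groups did. Its log2 fold change was 0.05.

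Lama2 and Lama4 are the mesenchymal, muscle and vascular forms. Lama2 was at 25.3, 52.1 and 61.2 CPM in WT and at 85.3, 59.3 and 72.3 CPM in IL-21isoTg, a log2 fold change of 0.65 with an edgeR unadjusted p of 0.0745. WT mouse 3 lay inside the IL-21isoTg range, and WT mouse 1 was the lowest. As a percentage of the fibroblast marker sum, Lama2 was at 1.25%, 1.46% and 1.8998% in WT and at 1.66%, 1.33% and 1.62% in IL-21isoTg, with the genotypes intermingled. Lama4 was at 36.3, 46.5 and 42.9 CPM in WT and at 58.4, 58.9 and 41.8 CPM in IL-21isoTg, a log2 fold change of 0.34 with an edgeR unadjusted p of 0.105. The endothelial marker sum, which was 119, 280 and 116 CPM in WT and 400, 323 and 167 CPM in IL-21isoTg, varied beside these values, and its part in them was not tested.

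Of the beta chains, Lamb1, a chain of many laminins, was the steadiest in WT at 105, 106 and 108 CPM, and was at 126, 129 and 103 CPM in IL-21isoTg. IL-21isoTg mouse 3 lay below the WT mice and the others above, and the log2 fold change was 0.17 (95% interval -0.18 to 0.52). Lamb2 was at 122, 244 and 210 CPM in WT and at 236, 237 and 154 CPM in IL-21isoTg, a log2 fold change of 0.12. Lamb3, of the hemidesmosome ligand, was at 106, 83.1 and 73.5 CPM in WT and at 127, 142 and 80.9 CPM in IL-21isoTg. Its log2 fold change was 0.41 with an edgeR unadjusted p of 0.129, and IL-21isoTg mouse 3 lay within the WT range.

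Lamc1, the gamma chain common to most laminins, was at 227, 218 and 196 CPM in WT and at 230, 260 and 195 CPM in IL-21isoTg. Its log2 fold change was 0.10, and the genotypes overlapped. Lamc3, a minor chain, was at 4.47, 8.07 and 9.85 CPM in WT and at 17.7, 8.23 and 7.46 CPM in IL-21isoTg, where IL-21isoTg mouse 1 alone stood above the rest and the log2 fold change was 0.58. Lamc3 shares 382 exon bases with the antisense gene Gm13441, and Lama2 shares 631 with the antisense gene Gm48084, which had 15, 41 and 50 counts in WT and 82, 82 and 22 in IL-21isoTg.

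**Figure D5:**
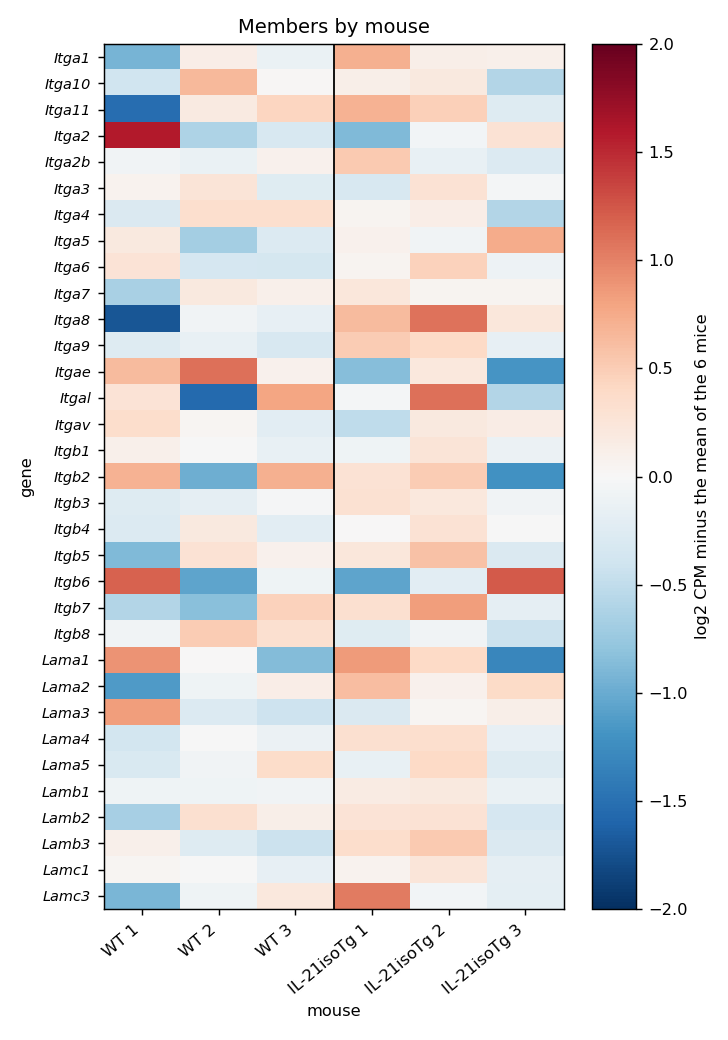
Log2 CPM of each gene minus its mean over the 6 mice, in color from -2 (blue) to 2 (red), with a column for each mouse and a line between the genotypes. Itga1, Itga7, Itga8 and Lama2 were above their means in every IL-21isoTg mouse, and of these Itga8 alone was below its mean in every WT mouse. WT mouse 1 showed the highest Itga2 and Lama3 of all mice.

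Subunits that assemble with each other were compared within each mouse, where the scaling of libraries cancels. Of 5 log2 ratios, none differed between the genotypes, with two-sided exact permutation p between 0.3 and 1, adjusted p of 0.933 or 1 over the 7 that were computed, and 0.1 as the smallest p possible. The mean difference, IL-21isoTg minus WT, was -0.08 for Itgb4 to Itga6, -0.33 for Itga3 to Itga6, -0.09 for Lama5 to Lamc1, 0.07 for Lamb1 to Lamc1 and -0.01 for Lamb2 to Lamb1. With 3 mice in a group these tests could not have passed 0.05.

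The spread between mice was about that of the whole table. The ratio of the highest to the lowest mouse had a median of 1.99 over the 34 genes and 1.95 over all genes tested. It was above 2.5 in 14 of the 34, with 8.01 for Itgal, 6.999 for Itga8, 6.18 for Itgae, 5.56 for Itga2, 4.94 for Itgb6, 4.84 for Itga11 and 4.63 for Lama1. The lowest mouse had only 6 counts for Itgal (WT mouse 2) and 3 counts, the floor of detection, for Itgae (IL-21isoTg mouse 3). Counting error therefore enters these ratios strongly. Of the genes named, Itga8 alone was without overlap between the genotypes.

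Other genes of the same adhesion system were read from lists of known members. A list of 18 integrin ligands other than laminins held 14 matrix or secreted proteins and 4 cell-surface proteins (Cdh1, Icam1, Madcam1 and Vcam1), and 0 of the 18 passed the adjusted threshold. At an edgeR unadjusted p under 0.05, 5 of the 14 were higher and 1 lower, with a median log2 fold change of 0.52, and 2 of the 4, Icam1 and Madcam1, were higher. For all genes 3.19% were higher and 2.63% lower at this p, with a median of -0.02. Tnc, the tenascin bound by Itga8 and Itga9, was at 32.3, 42.5 and 42.5 CPM in WT and at 96.8, 138 and 71.5 CPM in IL-21isoTg, a log2 fold change of 1.38 with an edgeR adjusted p of 0.418. Fbn1, a fibrillin of microfibrils, was at 57.1, 85.1 and 68.2 CPM in WT and at 102, 119 and 160 CPM in IL-21isoTg. Its relative Fbn2 went the other way, at 91.5, 61.1 and 49.7 CPM in WT and at 11.9, 19.6 and 6.43 CPM in IL-21isoTg, a log2 fold change of -2.40 with an edgeR adjusted p of 0.400. All 3 were without overlap between the genotypes, but they were picked for their small p. Over the whole list 7 of the 18 were higher and 1 lower without overlap, beside 5.54% and 6.54% of all genes.

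Of 17 partners of laminin in the basement membrane, 16 had estimates above 0, 0 passed the adjusted threshold and 3 were higher at an edgeR unadjusted p under 0.05, with a median log2 fold change of 0.43. Of all 17165 genes, 8216 had estimates above 0 and 3.19% were higher at this p. Hspg2, or perlecan, was at 184, 224 and 223 CPM in WT and at 311, 288 and 249.2 CPM in IL-21isoTg. Col4a2, a chain of collagen IV, was at 277, 225 and 226 CPM in WT and at 342, 352 and 283 CPM in IL-21isoTg. Nid1, which links laminin to collagen IV, was at 52.6, 127 and 123 CPM in WT and at 175, 165 and 156 CPM in IL-21isoTg. In all 3 every IL-21isoTg mouse was above every WT mouse, with log2 fold changes of 0.43, 0.43 and 0.72. This held for 3 of the 17 partners and for 5.54% of all genes, and the genes named were picked for their small p. Col15a1, a collagen of basement membrane zones, had a log2 fold change of 0.59 with an edgeR unadjusted p of 0.0366, and its genotypes overlapped. These genes are also made by fibroblasts and vessels, whose marker sums were given above, and the part of these cells was not tested.

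Of the 6 hemidesmosome genes 0 had an edgeR unadjusted p under 0.05. Their median log2 fold change was 0.16, and the 4 with the smallest p were Krt14 (0.41), Cd151 (0.18), Krt5 (0.18) and Plec (-0.09). Of 28 cytoplasmic partners of integrins 27 were tested, with 19 estimates above 0, 0 called and 4 higher at an edgeR unadjusted p under 0.05, beside 3.19% of all genes. Dab2, an adaptor for integrin uptake by endocytosis, had the smallest adjusted p of all genes, 0.126, at 22.8, 17.5 and 17.9 CPM in WT and at 58.6, 63.3 and 53.3 CPM in IL-21isoTg, a fold change of 3.01 (95% interval 2.29 to 3.95). Parvb, a parvin that joins integrins to actin, was at 1.08, 1.92 and 1.21 CPM in WT and at 6.03, 3.87 and 2.43 CPM in IL-21isoTg. In both genes the genotypes did not overlap, but they too were picked for their small p. Of the 27 partners tested 6 were higher in IL-21isoTg without overlap, beside 5.54% of all genes. Kank2 and Tns1, which act at adhesion sites, had log2 fold changes of 0.54 and 0.75 with edgeR unadjusted p of 0.0266 and 0.0403.

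Of 6 laminin receptors that are not integrins, 5 had estimates below 0 and 0 had an edgeR unadjusted p under 0.05, with a median log2 fold change of -0.19. Sdc4 and Sdc1, syndecans that carry heparan sulfate, had log2 fold changes of 0.54 and -0.75, with edgeR unadjusted p of 0.0683 and 0.0755. Dag1, or dystroglycan, had a log2 fold change of -0.22, and Rpsa, the ribosomal laminin receptor, of -0.28.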

How the data were processed

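MECs of 6 mice were sequenced by poly(A) RNA-seq with 150-bp paired reads. The authors deposited raw counts per gene and mouse, made by tools that the submitters' processing notes name as FastQC 0.11.7, Trimmomatic 0.38, HISAT2 2.1.0, SAMtools 1.9, featureCounts 1.6.3 and DESeq2 1.24.0, on mm10. The annotation and strand setting are not given in the sources used here. A deposited table of size-factor-scaled values was not used. Of the authors' comparison table, which holds fold changes and p-values, only gene starts and ends were read, to match GENCODE M21 (GRCm38): 31020 of 31286 identifiers, and 37 of 37 members, had the same positions.

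Counts were filtered with filterByExpr (minimum count 10, minimum total 15), scaled by TMM and tested with the quasi-likelihood test of edgeR 4.0.16 (robust, genotype as the only term) in R 4.3.3, with Benjamini-Hochberg adjustment over 17165 genes and a threshold of 0.05. The script was tested on simulated data. Alternatives used DESeq2 1.42.0 and limma 3.58.1, and plots matplotlib 3.10.9. Single values were compared by exact permutation tests. The total was 15902886 to 25719244 counts per mouse, and the floor of 3 counts covers counting error only. Replicates are separate mice. The rule names every member, but 1 is not reported here, and of each further list up to 4 genes with the smallest p, with Spp1. Members and lists were chosen with earlier results of these data known. Promoters came from RefSeq (GRCm38.p6), without chromosome 18. No sample was left out.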

Additional observations from a re-analysis of the deposited data

How the results depend on the processing

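The count of integrin and laminin genes past the adjusted threshold was 0 under all 17 alternative settings and the newer quasi-likelihood method of edgeR, added after the data were seen, and the lowest adjusted p of any member was 0.306, for Itga8 with DESeq2. The count at an unadjusted p under 0.05 was 2 in the main fit. It was 3 (Itga8, Itga9 and Itgb8) with DESeq2 size factors, TMM without salivary genes, DESeq2 or limma-voom, beside 960 to 1190 of all genes. It was 1 without a filter on low counts and 4 with the salivary gland level as a covariate. With 1 mouse left out it was 1 to 5 (5 without WT mouse 1, 1 without IL-21isoTg mouse 1, 4 without IL-21isoTg mouse 3). Of 591 values for single genes, 556 kept their sign and 35, in 15 genes, did not. Changes of sign were to 0.0100 for Itga3 (salivary covariate), to 0.0019, 0.028, 0.016, 0.0087 and 0.066 for Itgb6 (DESeq2 size factors, TMM without salivary genes, DESeq2, DESeq2 on all genes, replicate block), to -0.024 for Lama1 (replicate block), and to -0.0042 and -0.013 for Lama5 (no filter, limma-voom). With 1 mouse left out the log2 fold change ranged from -0.42 to 0.13 for Itga10, -1.07 to 0.33 for Itga2, -0.17 to 0.27 for Itga2b, -0.22 to 0.090 for Itga3, -0.024 to 0.34 for Itga7, -0.43 to 0.79 for Itgal, -0.23 to 0.092 for Itgav, -0.095 to 0.11 for Itgb1, -0.66 to 0.081 for Itgb2, -0.87 to 0.79 for Itgb6, -0.39 to 0.62 for Lama1, -0.42 to 0.33 for Lama3, -0.23 to 0.21 for Lama5, -0.11 to 0.33 for Lamb2 and -0.0076 to 0.20 for Lamc1. The range was -0.38 to 0.16 for the log2 ratio of Itgb4 to Itga6, -0.29 to 0.16 for Lama5 to Lamc1 and -0.30 to 0.19 for Lamb2 to Lamb1. The cause of these changes was not tested. The median log2 fold change of the members stayed between 0.08 and 0.26 in all settings.

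Replicate numbers are shared between the genotypes in the labels, but same-numbered mice did not deviate together (correlations of -0.22, 0.07 and -0.06), so the numbers were not taken as pairs. With the replicate block 0 members were called, 2 had an unadjusted p under 0.05, the median log2 fold change was 0.16, and all genes at that p went from 999 to 657. For single values, sign-flip tests over 3 pairs cannot go below 0.25. The 3 untested genes had 0 to 22 counts per mouse, and at this depth a difference between genotypes in them was not detectable.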
